A study of Arabidopsis thaliana with 12 samples.

Results

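The comparison concerned here is that of an erf5/6 double mutant with wild type in seedlings that received water only, that is, the state of the transcriptome without ERF5 and ERF6 before any elicitor was added. It rests on 6 of 12 expression arrays of Arabidopsis thaliana, 3 per genotype, chosen by their sample labels, and covers all 22746 probe sets of the array. All seedlings were 14 days old, had grown under constant light, and were harvested whole. The mutant and the wild type described here were treated with water for 30 min; the other 6 arrays came from the same genotypes after 30 min with 1 µM chitooctaose, a soluble oligomer of N-acetylglucosamine, the unit of fungal chitin. The labels call the mutant a double mutant of ERF5 and ERF6, without alleles or number of lines, and call the 3 arrays of a group biological replicates.

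ERF5 and ERF6 are closely related transcription factors of the AP2/ERF family, the plant-specific family whose ERF members bind the GCC box found in promoters of many defence genes. Both are known in Arabidopsis for their part in defence downstream of ethylene and jasmonate and for being induced by chitin, and both have also been linked to leaf growth under osmotic stress. Chitin itself is perceived at the plasma membrane by LysM receptor kinases, which signal through protein kinase cascades to transcription factors of this kind. The comparison in water asks what the loss of the pair does to transcript levels without that signal.

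Few transcripts differed between the genotypes in water: 6 probe sets passed the test. A probe set is the group of oligonucleotides that reports a transcript; its value is a fluorescence intensity in arbitrary units, here after quantile normalization, and intensities below 16 were treated as 16. Of the 22746 probe sets, 4066 lay at that floor on all 12 arrays, and the other 18680 were tested with limma. At an adjusted p under 0.05, 4 probe sets were higher in the mutant (0.0214% of those tested) and 2 were lower (0.0107%). Of these, 3 of the higher and both of the lower ones differed at least 2-fold. Their identities were diverse: the orphan gene QQS, the gene AT5G55570, a probe set shared by a pair of neighbouring lipid-transfer-type genes, a probe set shared by several germin-like genes, and 2 probe sets to which the gene table used here assigns no gene.

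That table holds no probe set under the name of ERF5 or ERF6, so the loss of the targeted transcripts could not be read by name. The genotype therefore rests on the labels. The table assigns no gene to 8730 probe sets. Whether any of these, the called ones included, reports ERF5 or ERF6 was not determined. Among markers of the harvested tissue, the light-harvesting gene LHCB4.1 had 5050, 5010 and 5390 on the wild-type arrays and 5530, 5280 and 5530 on the mutant arrays, and RCA, which encodes Rubisco activase, differed by -0.00 on the log2 scale. The root gene PYK10, a beta-glucosidase of the endoplasmic reticulum bodies, lay between 3540 and 4290 on the 6 arrays. Green tissue and root were thus both present at strong signal in both genotypes. The seed and dividing-cell markers had no tested probe set with 1 gene. Array 1 of water-treated wild type and array 2 of chitooctaose-treated wild type were taken to stand apart after a principal component analysis of all arrays. Component values from that analysis are not given here. Within the 6 water arrays the genotypes interleaved on component 1, which carried 34.5% of the variance: wild type had 21.6, 5.0 and -9.3 and the mutant -1.3, 8.4 and -24.4. Without the 2 wild-type arrays that stood apart, 2 probe sets were called higher and 2 lower, all 4 of them among the 6. In bulk RNA, fewer cells of a type and less RNA per cell cannot be told apart.

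**Figure D1:**
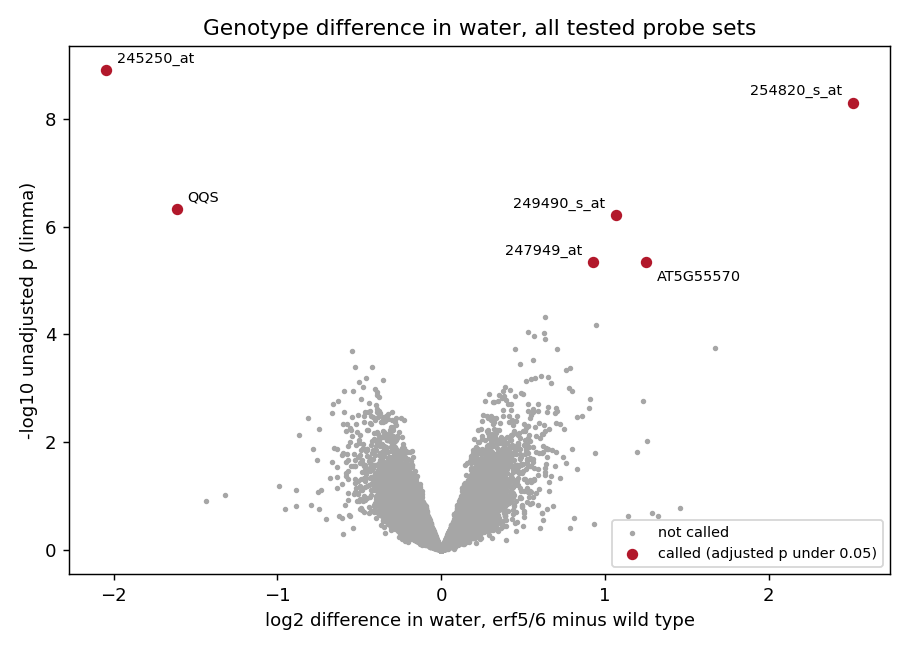
Each point is 1 of the 18680 tested probe sets; the x axis is the log2 difference between the genotypes in water (erf5/6 minus wild type) and the y axis is -log10 of the unadjusted limma p. The 6 called probe sets, in red and labelled, lie above the rest; the largest difference is 2.51 for 254820_s_at and the lowest is -2.04 for 245250_at.

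The lowest p belonged to 245250_at, a probe set with no gene in the table. Whether it reports ERF5 or ERF6 itself was not determined. Its fall can therefore not be counted as a difference in a gene other than the mutated ones. The normalized intensity of 245250_at was 58.8, 73.7 and 78.8 in water-treated wild type and 11.1, 17.6 and 17.3 in the water-treated mutant. The genotypes did not overlap, and the mutant arrays sat at the edge of the floor. The log2 difference was -2.04 ± 0.11 (SE, n = 3 arrays per group), 4.12-fold lower in the mutant (limma adjusted p = 2.33e-05). With an offset of 32 or a floor of 32 in place of the floor of 16 the difference was -1.11 and -1.13 and still called.

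The largest difference was the rise of 254820_s_at, which the table assigns jointly to AT4G12510 and AT4G12520, neighbouring genes for small secreted proteins of the lipid-transfer and seed-storage inhibitor type; the array does not separate them. Wild type had 93.4, 109 and 117 and the mutant 582, 586 and 651. Every mutant array was thus far above every wild-type array, by 2.51 ± 0.15 on the log2 scale, or 5.71-fold (adjusted p = 4.68e-05). Related genes next to this pair on chromosome 4 did not share that rise. AT4G12500 had 549, 490 and 488 in wild type against 394, 409 and 431 in the mutant, a difference of -0.31 ± 0.09 that was not called (adjusted p = 0.666), and AT4G12490 had -0.49 ± 0.25 (adjusted p = 0.864). These neighbours were picked after their values were seen.

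QQS, or AT3G30720, is an orphan gene, known only from Arabidopsis thaliana and linked to the partition of carbon between starch and protein. Its intensity was 312, 298 and 390 in wild type and 106, 124 and 95.4 in the mutant. The 3 mutant arrays were all below the wild-type arrays, and QQS fell by 1.62 ± 0.15 on the log2 scale, 3.06-fold (adjusted p = 0.00284).

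The probe set 249490_s_at is assigned jointly to AT5G39110, AT5G39120, AT5G39150 and AT5G39180, a chromosome 5 cluster of germin-like genes, which encode cell wall proteins of the cupin fold. It had 123, 129 and 113 in wild type and 234, 270 and 261 in the mutant. It rose by 1.07 ± 0.10 on the log2 scale (adjusted p = 0.00284), with no overlap between the genotypes, and which of the 4 genes contributed cannot be read from it. A second probe set assigned to germin-like genes of that cluster, 249496_s_at for AT5G39140, AT5G39170 and AT5G39200, lay at or near the floor, between 10.2 and 22.0, with a difference of 0.24 ± 0.14.

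AT5G55570 was close to the floor in wild type, at 18.6, 16.9 and 12.8, and had 47.3, 41.7 and 34.4 in the mutant. It rose by 1.25 ± 0.15 (2.38-fold, adjusted p = 0.0144). The sixth, 247949_at, has no gene in the table; it had 68.8, 88.5 and 77.9 in wild type and 134, 166 and 147 in the mutant, a rise of 0.93 ± 0.11 (1.90-fold, adjusted p = 0.0144). For both probe sets all mutant arrays were above all wild-type arrays, but these calls were less stable than the first 4. AT5G55570 kept its call under 12 of 23 alternative settings and 247949_at under 15 of 24, whereas each of the other probe sets kept its call under all 24. AT5G55570 lost it when any 1 of the water arrays other than array 3 of the mutant was left out (adjusted p between 0.0634 and 0.104), and its difference was 0.60 with an offset of 32 (adjusted p = 0.0524) and 0.35 with a floor of 32 (adjusted p = 0.686). 247949_at lost it when array 1 or 3 of wild type, or array 2 or 3 of the mutant, was left out of the water arrays (adjusted p between 0.0719 and 0.104). AT5G55570 and 247949_at both lost it without the 2 wild-type arrays taken to stand apart (limma adjusted p = 0.0628 and 0.087).

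**Figure D2:**
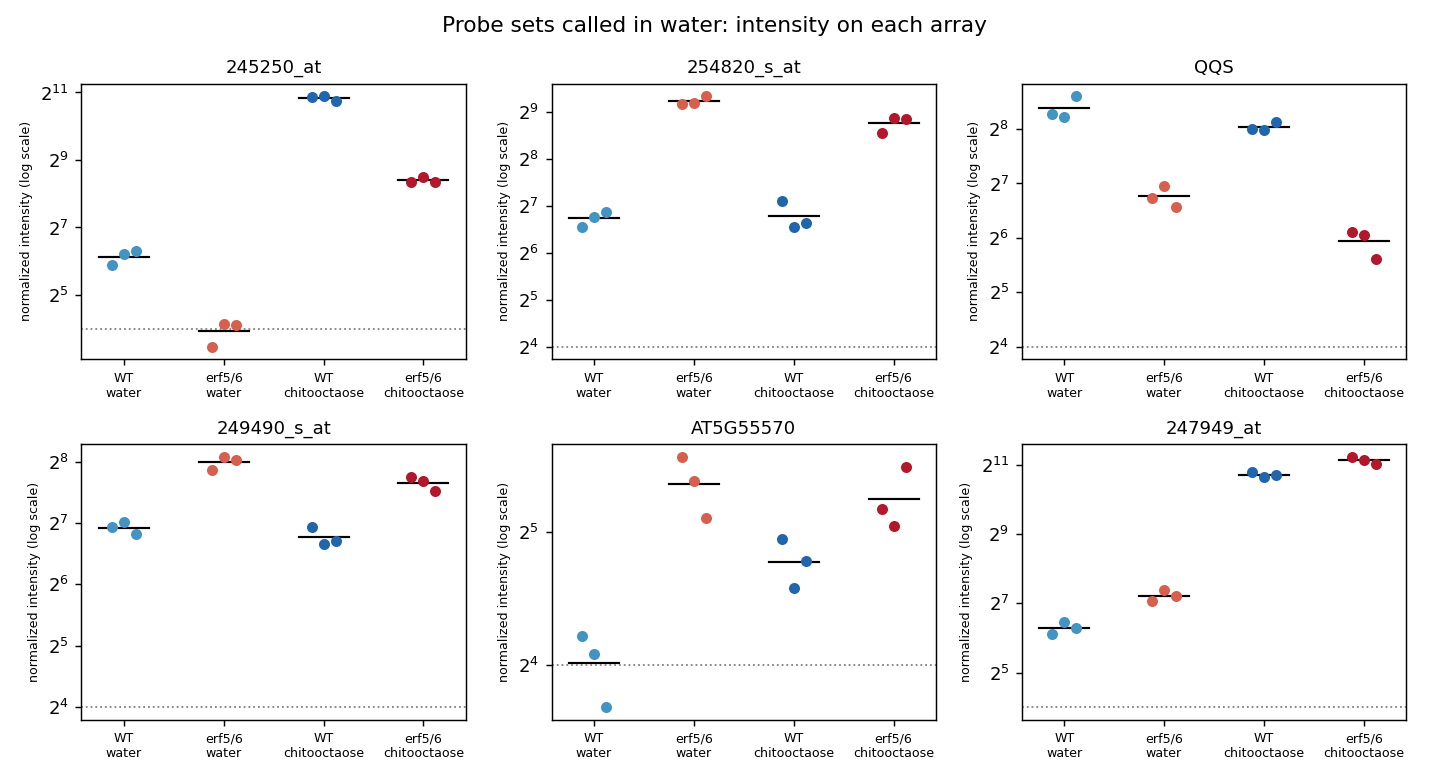
Normalized intensity (log scale) of each probe set called in water on each of the 12 arrays; points are arrays, horizontal bars are means of 3 arrays, and the dotted line is the floor of 16. In each panel the water-treated mutant is separated from water-treated wild type, and the chitooctaose-treated groups differ in the same direction; 245250_at and 247949_at are also far brighter after chitooctaose in both genotypes.

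The 6 chitooctaose arrays, none of which entered the water contrast, gave a second reading of the same genotypes, although both contrasts used 1 shared estimate of the spread. All 6 probe sets differed there in the direction seen in water. The genotype difference was called on those arrays for 4 probe sets in all (0.0214% of those tested), and these were 4 of the 6: 245250_at (-2.44 ± 0.11), 254820_s_at (2.01 ± 0.15), QQS (-2.12 ± 0.15) and 249490_s_at (0.89 ± 0.10). QQS had 257, 254 and 281 in chitooctaose-treated wild type and 68.9, 66.6 and 48.9 in the treated mutant. AT5G55570 and 247949_at had 0.47 and 0.42, not called (adjusted p = 0.608 and 0.494).

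Of the 6, 2 were themselves strongly responsive to chitooctaose. 245250_at went from the values above to 1870, 1900 and 1730 in treated wild type and to 328, 362 and 324 in the treated mutant, a mean rise of 4.52 over both genotypes. 247949_at reached 1770, 1590 and 1660 in wild type and 2400, 2240 and 2090 in the mutant, a mean rise of 4.17. The first was therefore lower in the mutant in both treatments and the second higher on all arrays of both. The test of whether the genotype difference itself differed between the treatments called 0 probe sets of 18680 (0%), with a lowest adjusted p of 0.975 and 859 at an unadjusted p under 0.05; for the 6 the change in the difference lay between -0.79 for AT5G55570 and -0.18 for 249490_s_at.

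**Figure D3:**
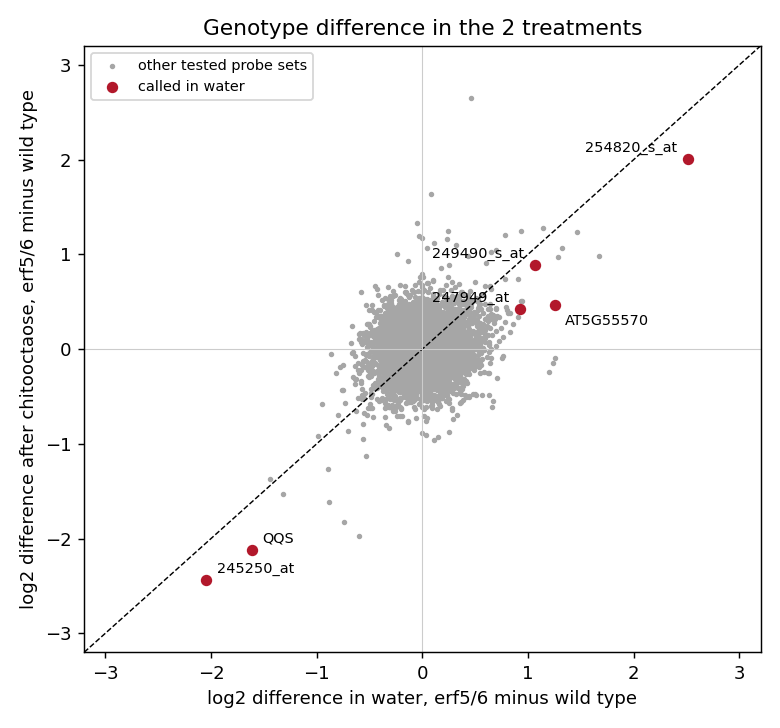
The log2 genotype difference (erf5/6 minus wild type) in water on the x axis and after chitooctaose on the y axis for the 18680 tested probe sets, with the line of equality dashed. The 6 probe sets called in water, in red, lie in the upper right and lower left quadrants and all below the line, AT5G55570 at 1.25 and 0.47 and 247949_at at 0.93 and 0.42; across all probe sets the correlation was 0.199.

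Beyond the 6 the water difference was small and diffuse. The median difference over all tested probe sets was -0.00 on the log2 scale, 98.7% of them differed by less than 0.5, and the median 95% confidence interval reached 0.28 to each side. Of the 16263 probe sets above the floor on all 6 water arrays, the interval lay wholly within a 2-fold change for 98.7% and within 1.5-fold for 84.0%. At an unadjusted p under 0.05 there were 602 higher (3.22%) and 528 lower (2.83%), 1130 in all against 934 that chance gives. The 3 arrays of the mutant did not overlap those of wild type for 1918 probe sets (10.3%), 953 higher and 965 lower. With 3 arrays against 3, random order alone separates a share of about this size, so this count shows no genotype difference by itself. Of the 1130, 731 (64.7%) had the same sign on the chitooctaose arrays, against 52.9% of all tested probe sets. No probe set beyond the 6 had an adjusted p under 0.1, and 12 in all had one under 0.2.

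The leading edge of that diffuse difference was taken from probe sets with 1 gene, by the lowest p. Genes were kept only if the genotypes did not overlap in water and neither group lay wholly at the floor. None of them was called except AT5G55570 and QQS. On the higher side 3 of the 12 leading genes encode dirigent-like proteins, a family of secreted proteins whose founding members steer the coupling of lignan and lignin precursors. AT2G39430 had 50.8, 46.2 and 47.0 in wild type and 72.5, 78.4 and 72.8 in the mutant, a difference of 0.64 ± 0.10 (adjusted p = 0.124). AT4G13580 had 109, 91.9 and 109 against 158, 142 and 181 (0.63 ± 0.11, adjusted p = 0.187), and AT3G13650 had 244, 271 and 304 against 372, 380 and 386 (0.48 ± 0.09, adjusted p = 0.363). Non-overlap in water was fixed by this choice of genes, and 10.3% of all probe sets had it. On the chitooctaose arrays the genotypes overlapped for all 3, with differences of -0.15, 0.05 and 0.01. The dirigent-like list, put together after these values were seen, had 11 tested genes: 0 were called, these 3 were higher at an unadjusted p under 0.05 and none was lower, beside 3.22% and 2.83% of all probe sets, and the median difference was 0.06 against -0.00 for all probe sets. As the list was made with these 3 genes in view, their count is not a test against those shares. The other members of the list lay between -0.24 for AT1G55210 and 0.34 for AT4G11210. AT2G39430 was called with array weights and without array 2 of chitooctaose-treated wild type (adjusted p = 0.0259 and 0.0478).

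The thionin gene AT1G66100, which encodes a small antimicrobial peptide of the cell wall, had the largest positive difference of any tested probe set with 1 gene. It had 7.67, 22.4 and 20.8 in wild type and 46.5, 80.8 and 64.2 in the mutant, or 1.67 ± 0.30 (adjusted p = 0.233). After chitooctaose it had 62.2, 26.4 and 55.7 against 80.8, 92.7 and 94.7, so the mutant was again above every wild-type array. Its wild-type values in water lay near the floor, the difference was 0.96 under the alternative that shrank it most, and the call was made only without array 2 of chitooctaose-treated wild type (adjusted p = 0.0186).

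Among the rest of the 12, AT5G23830, of the lipid-binding MD-2-related family, had 218, 243 and 253 against 375, 329 and 330 (0.53 ± 0.09, adjusted p = 0.173). It was separated in the same direction after chitooctaose, at 0.45. XTH20, a xyloglucan endotransglucosylase gene of cell wall remodelling, had 172, 151 and 175 against 227, 250 and 266 (0.58 ± 0.12), with 0.38 after chitooctaose. AT5G66985 had 106, 108 and 125 against 159, 190 and 183 (0.65 ± 0.14), with 0.63 after chitooctaose. AT4G14060, of the Bet v 1-like major latex protein group, had 0.56 in water and 0.43 after chitooctaose, from values near the floor in wild type. These 4 genes, chosen for separation in water, also had all mutant arrays above all wild-type arrays after chitooctaose, as did AT5G55570 and AT1G66100. How many of all tested probe sets were separated on the chitooctaose arrays was not counted, so this number shows no genotype difference by itself. AT2G12910 (0.70), AT5G05840 (0.63) and AT3G42690 (0.55) lay under an intensity of 30 on all water arrays.

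Differences on the lower side were smaller. After QQS, the lowest p values of the 12 leading genes belonged to AT1G50280 and AGO7. AT1G50280, of the NPH3 family, had -0.54 ± 0.10 (limma adjusted p = 0.236). AGO7 is the Argonaute that acts in trans-acting siRNA formation and leaf phase change. AGO7 had 46.1, 47.1 and 51.3 in wild type and 35.5, 32.9 and 32.1 in the mutant (-0.52 ± 0.10, adjusted p = 0.369), and -0.18 after chitooctaose. RAD4, a DNA damage recognition factor of nucleotide excision repair, had 100, 86.0 and 92.8 against 63.6, 64.3 and 57.1 in water (-0.59 ± 0.13, adjusted p = 0.531), and 0.17 after chitooctaose. LAS, the GRAS factor needed for axillary meristems, had 29.0, 29.6 and 30.6 against 22.9, 23.3 and 21.9 (-0.39 ± 0.09). OTP81, a pentatricopeptide repeat factor of organelle RNA editing, had -0.36, AT5G39350, of the same repeat family, -0.50, and the glycosyltransferase gene UGT85A7 -0.46. AT1G15790 (-0.63), AT3G44830 (-0.40), AT3G53220 (-0.40) and AT4G17470 (-0.39) completed the 12. Except for QQS, none of the 12 was separated in the same direction on the chitooctaose arrays. As the share of all probe sets separated there was not counted, this does not show that these differences are particular to water.

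**Figure D4:**
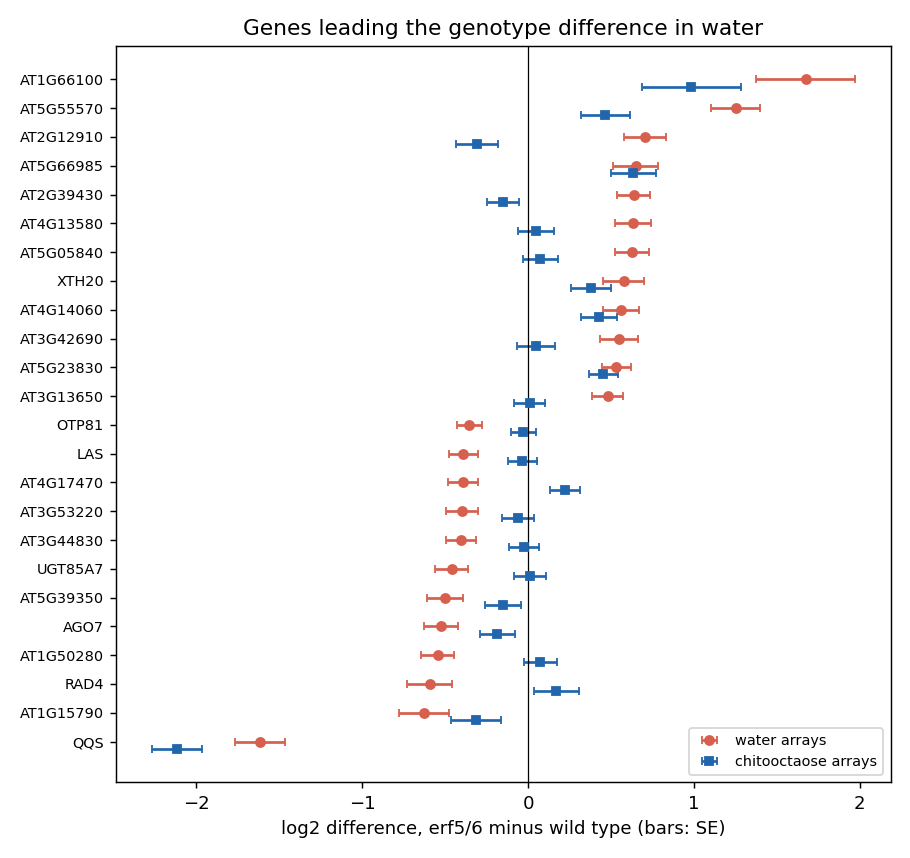
Log2 difference (erf5/6 minus wild type) with its SE for the 12 higher and 12 lower leading genes, on the water arrays (circles) and on the chitooctaose arrays (squares). These had the lowest p in water among genes without overlap between the genotypes there and not wholly at the floor in either group. QQS lies at -1.62 and -2.12 in the 2 treatments; most of the lower genes lie near 0 after chitooctaose.

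Genes of chitin, ethylene and jasmonate signalling, of other stress and hormone pathways and of cell types were examined by list. The lists held 317 genes, of which 68 had a probe set of their own in the gene table. Of these, 64 were tested, in 25 of 32 lists. None of the 64 was called in water; 4 were higher and 2 lower at an unadjusted p under 0.05, against 3.22% and 2.83% of all probe sets. Their median difference was 0.04, their range -0.53 to 0.52, and of the 57 that were above the floor on all 6 water arrays, 51 had a 95% interval within a 2-fold change. The lowest adjusted p was 0.541, for XTH19.

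Defence outputs came first. Of the jasmonate and ethylene defence genes, PDF1.2, an antifungal defensin gene with a GCC box in its promoter, had 62.4, 246 and 39.1 in wild type and 151, 127 and 80.7 in the mutant. The genotypes overlapped widely, with a difference of 0.46 and a 95% interval of 1.24 to each side. After chitooctaose the same probe set had 61.2, 28.4 and 44.8 against 332, 239 and 244, a difference of 2.65 that was not called (adjusted p = 0.395). PDF1.2b had 0.24 in water, with an interval of 0.97 to each side. Of 7 chitinase genes 0 were called, with a median of 0.05 and values between -0.35 for AT2G43620 and 0.29 for AT2G43590; AT2G43580 had -0.33 at an unadjusted p of 0.0453.

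Signalling components were measured more tightly. In the chitin perception and early immune signalling list, 0 of 5 tested genes were called: the receptor-associated kinase gene BIK1 had -0.07 with an interval of 0.31 to each side, and the ubiquitin ligase genes PUB22, PUB23 and PUB24 had 0.22, -0.15 and 0.11. The immune receptor gene EFR lay between 7.16 and 16.1 on the 6 water arrays, below the floor on all but 1 of them, so its difference could not be measured. The transcription factor genes WRKY53, WRKY22 and WRKY6 had -0.18, 0.08 and 0.17. STZ, a zinc finger repressor of stress responses, had 58.2, 102 and 62.5 against 71.3, 78.8 and 67.3 and differed by 0.01. EIN3, the central transcription factor of ethylene signalling, had 0.10 with an interval of 0.21 to each side, and the jasmonate factors MYC3 and MYC4 had -0.07 and 0.24. AT5G61590, the 1 tested member of 14 listed ERF factors of the same phylogenetic group, had 651, 719 and 749 against 604, 663 and 880, a difference of 0.00 with an interval of 0.28 to each side. For the genes of this paragraph other than EFR, basal differences of 2-fold or more lay outside the intervals.

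The other list members at an unadjusted p under 0.05 were XTH19, IAA29, ARR15, UF3GT and the reference gene SAND. XTH19, a touch- and brassinosteroid-responsive relative of XTH20, had 550, 501 and 622 in wild type and 766, 687 and 720 in the mutant, without overlap (0.38 ± 0.09, adjusted p = 0.541), while XTH18 had 0.05. On the chitooctaose arrays XTH19 lay between 1080 and 1200 in both genotypes. The auxin response gene IAA29 had 0.52 (limma adjusted p = 0.76), with wild-type values of 8.65, 16.6 and 20.5, near the floor. The other tested auxin genes, GH3.3 and GH3.5, had 0.02 and 0.08. The cytokinin response regulator gene ARR15 had 0.45 (limma adjusted p = 0.762), while ARR16 had -0.12. The anthocyanin glycosyltransferase gene UF3GT had -0.52 (adjusted p = 0.818). Of 16 tested expansin genes, whose products loosen cell walls, 0 were called, 3 were higher at an unadjusted p under 0.05 and 0 lower, beside 3.22% and 2.83% of all probe sets, and the median was 0.09: EXPB1 had 0.60, EXPA8 0.59 and EXPA9 0.39, each with an adjusted p between 0.716 and 0.774. The root hair expansin gene EXPA7 had 0.38 with an interval of 0.44 to each side, beside 0.11 for PYK10; the part of root proportion in these values was not tested. Of 20 cytochrome P450 genes, 37 UDP-glycosyltransferase genes and 11 glutathione S-transferase genes matched by name, 0 were called. Their medians were -0.02, 0.04 and 0.07. Probe sets without a gene in the table, which include called ones, could not be searched for members. At an unadjusted p under 0.05, these families had 0, 2 and 2 genes higher and 2, 2 and 0 lower. The reference genes TIP41 and PEX4 had 0.09 and 0.08, and SAND, also used as a reference gene, had 187, 196 and 184 against 238, 196 and 230 (0.22 ± 0.08, adjusted p = 0.747).

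**Figure D5:**
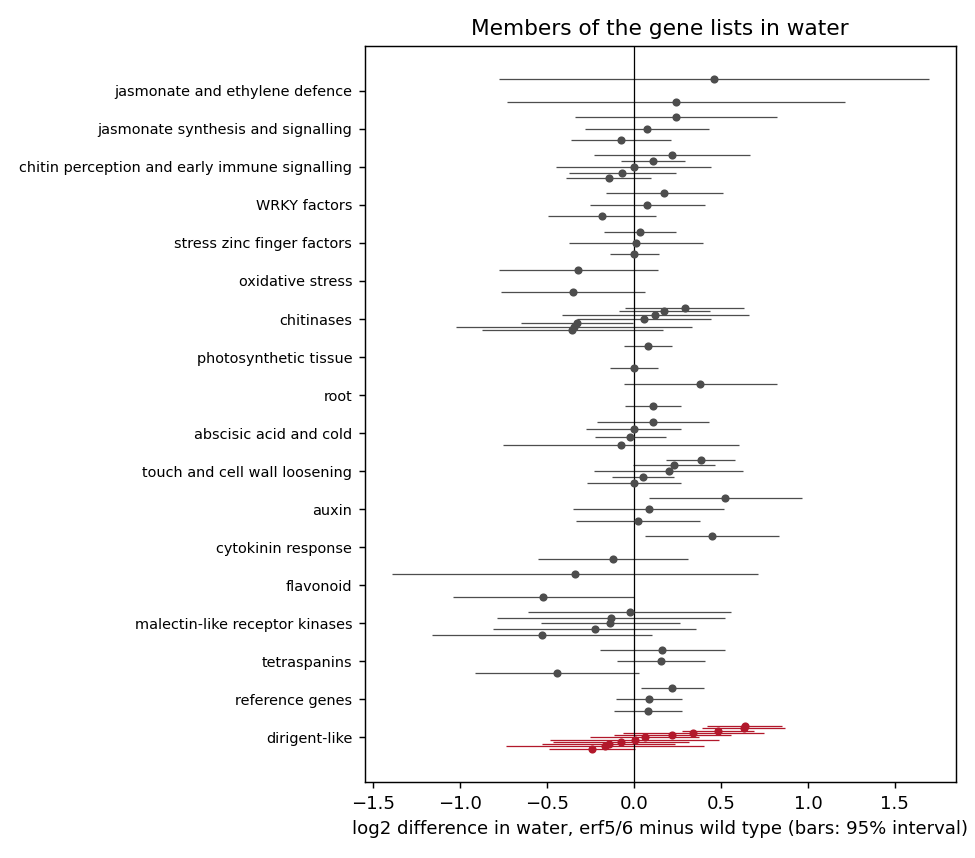
Log2 difference in water (erf5/6 minus wild type) with its 95% interval for each tested member of the gene lists with at least 2 tested members; the dirigent-like list, in red, was added after its values were seen. None of the members was called; 3 dirigent-like genes lie between 0.48 and 0.64, and PDF1.2 has the widest interval, 1.24 to each side.

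Genes that respond to chitooctaose were also followed as a class, chosen by the mean effect of chitooctaose over both genotypes, a contrast that shares arrays with the water difference but is balanced over genotype. The 635 probe sets that rose at least 2-fold had a median genotype difference of 0 in water, with 315 higher and 275 lower. At an unadjusted p under 0.05, 23 of them were higher and 31 lower, beside 3.22% and 2.83% of all probe sets. The 2 that were called are 245250_at and 247949_at described above. The 44 that fell at least 2-fold had a median of 0.08, and 0 were called. At an unadjusted p under 0.05, 7 of the 44 were higher and 3 lower, beside the same 3.22% and 2.83% of all probe sets.

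Transcripts encoded next to the mutated genes were examined in gene order. None of the 167 tested genes within 200 genes of ERF5 on chromosome 5 was called, and 5.39% had an unadjusted p under 0.05; of the 157 around ERF6 on chromosome 4, 0 were called and 8.92% had one (5 higher and 9 lower), beside 6.04% of the 10109 tested genes placed in this way. The nearest tested genes to ERF5, AT5G47250 and AT5G47210, had 0.08 and -0.03. Next to ERF6, AT4G17486, the first gene on one side, had 176, 196 and 240 in wild type and 260, 226 and 254 in the mutant (0.28 ± 0.12, adjusted p = 0.813), with 0.25 after chitooctaose. AT4G17480, 3 genes away on that side, had -0.10, and AT4G17520, the nearest tested gene on the other side, had 0.03. AT4G17470, 4 genes away on the same side, had 23.8, 20.8 and 19.7 against 11.9, 16.8 and 11.7 (-0.39 ± 0.09, adjusted p = 0.54), and the opposite sign after chitooctaose. Among all neighbours, the lowest p values were those of XTH20 for ERF5 and of AT4G16640 (0.67 ± 0.14, adjusted p = 0.47) for ERF6. By chromosome, the share of tested genes at an unadjusted p under 0.05 lay between 5.15% on chromosome 3 and 6.87% on chromosome 2.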

How the data were processed

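Biotin-labelled antisense RNA of whole seedlings was hybridised to 12 one-colour arrays, per the labels' protocols; the labels' genotype and treatment gave the groups. The authors deposited linear intensities per probe set, with column medians from 77.0 to 83.2; the steps behind these values (summarization, background correction, scaling) are not given in the sources used here. Intensities were quantile normalized, values below 16 (24.1% per array) were set to 16, and log2 was taken. limma 3.58.1 in R 4.3.3 fitted a mean per group over all 12 arrays, with empirical Bayes moderation, two-sided tests and Benjamini-Hochberg adjustment over 18680 probe sets; calls are at an adjusted p under 0.05. The fit was tested on simulated data. The number of arrays limits the precision.

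Names came from the platform's gene table, updated through a RefSeq table (TAIR10.1): of 22746 probe sets 13513 had 1 gene, 503 several and 8730 none, and 13436 matched. Named are called genes whose arrays separate in water and that are not wholly at the floor in either group. They were filled to 12 per direction by the lowest p under the same conditions. Up to 3 members per list are also named. Called probe sets with no or several genes are given by their identifier. A gene with several probe sets is represented by the brightest. Neighbours were taken by gene order, in place of the distances planned. The planned promoter motif counts were not run, as no promoter sequence was used here. The members and lists were chosen with earlier results of these data known. Array 1 of water-treated wild type and array 2 of chitooctaose-treated wild type were left out together in an alternative added after the data were seen.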

Additional observations from a re-analysis of the deposited data

Results flagged for a closer look

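For 2 of the named genes the 3 arrays of one genotype lay wholly on one side of the other in water and wholly on the opposite side after chitooctaose. Both were leading genes, for which separation in water was fixed by the choice. The unadjusted p values below come after that choice. How many of all probe sets changed sides in this way was not counted. Over all tested probe sets, 859 had an unadjusted limma p under 0.05 for the change in the difference, against 934 that chance gives. AT2G12910 had 15.2, 13.4 and 16.2 in wild type and 27.0, 24.9 and 26.7 in the mutant in water, and 21.3, 21.4 and 28.3 against 15.6, 20.4 and 20.8 after chitooctaose. The genotype difference changed by -1.01 ± 0.18 on the log2 scale, which was not called (adjusted p = 0.975, unadjusted p = 0.000162).

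AT4G17470, a gene 4 places from ERF6, had 23.8, 20.8 and 19.7 against 11.9, 16.8 and 11.7 in water and 17.5, 15.9 and 13.2 against 18.9, 21.2 and 17.8 after chitooctaose. The change of the difference was 0.616 ± 0.129 (adjusted p = 0.975, unadjusted p = 0.000623). Both genes lay within a factor of 2 of the intensity floor of 16 on all 12 arrays.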

How the results depend on the processing

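Each of 24 alternatives called 2 probe sets lower. The number called higher, 4 as reported, was 2 with only the 6 water arrays, at an adjusted p under 0.01, when probe sets that never left the floor were tested too, and after removal of array 1 of water-treated and array 2 of chitooctaose-treated wild type together. With 1 array left out it lay between 2 (array 1 or 3 of wild type in water) and 7 (array 2 of wild type after chitooctaose). The number called with at least 2-fold change, 5 as reported, was 3 with an offset of 32. 245250_at, 254820_s_at, QQS and 249490_s_at were called under all 24, with highest adjusted p values of 0.00647, 0.00152, 0.0464 and 0.0464. AT5G55570 was called under 12 of 23 (adjusted p 0.00379 to 0.686) and 247949_at under 15 of 24 (0.00206 to 0.231); the causes were not tested. Deviations from the group mean of mutant and wild-type water arrays sharing a replicate number correlated at r = 0.08, 0.17 and 0.43. Pairs with different numbers had r between -0.37 and 0.19. A shared replicate effect was not tested, and the reported fit did not treat the arrays as paired. With the replicate block 3 were called higher and 2 lower, and 247949_at had a limma adjusted p of 0.0613. Over 81 named features there were 1873 unchanged outcomes, 20 losses of a call, 4 gains and 0 reversals of sign beyond the standard error. Only 6 of the 81 were called as reported, so most unchanged outcomes are uncalled genes that stayed uncalled. Changes of sign within the standard error were counted as unchanged for these. The losses all fell on AT5G55570 and 247949_at. The gains were AT2G39430 with array weights and without array 2 of chitooctaose-treated wild type, AT1G66100 without that array, and AT5G05840 without array 3 of chitooctaose-treated wild type (adjusted p = 0.0296). Dim probe sets are limited by the floor.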

Other observations

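Several probe sets without a gene in the table owed a large mean difference to single arrays, and were picked after their values were seen. 253767_at had 267 on array 1 of the water-treated mutant and at most 19.0 on the other water arrays. 265095_at, 249082_at, 253904_at and 253895_at had 233, 252, 171 and 175 on that array, and at most 23.7 on any other water array. The same 5 probe sets had 145, 101, 149, 134 and 124 on array 3 of the chitooctaose-treated mutant, and at most 27.7 on its other 2 arrays. None was called in water (limma adjusted p between 0.921 and 0.965).

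On array 1 of water-treated wild type, 266070_at had 568, against 108 and 277 on the other wild-type arrays and 79.0, 79.1 and 136 in the mutant. After chitooctaose it had 459 on array 2 of wild type and 49.1 and 36.8 on its other arrays. 263539_at, 250445_at and 251625_at were also highest on those 2 arrays within their groups, at 149, 142 and 246 in water and 167, 78.2 and 80.8 after chitooctaose.

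AT2G04050, of the MATE transporter family, and 263268_at, which has no gene in the table, split the water-treated mutant. AT2G04050 had 55.9, 14.6 and 61.6 there and between 15.4 and 18.0 in wild type, and 263268_at had 68.0, 6.03 and 51.4. Neither was called (adjusted p = 0.716 and 0.707).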
